A study of Homo sapiens with 5 samples.

Results

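The E2F genes encode transcription factors that switch genes of DNA replication and the cell cycle on or off, and the DP genes encode the partners with which most of them bind DNA. The 10 genes described here are E2F1 to E2F8, TFDP1 and TFDP2. They were taken by name from 64440 annotated genes, 20162 of them protein-coding, and the rule that picks them uses no measured value. E2F1, E2F2 and E2F3 are known as activators, and E2F4 and E2F5 as repressors that work with the pocket proteins RBL1 and RBL2 (p107 and p130). E2F6 lacks a pocket-protein binding domain and works with Polycomb proteins. E2F7 and E2F8 are atypical repressors that bind DNA without a DP partner. PHF8 is a chromatin enzyme, a lysine demethylase whose substrates include H4K20me1 and H3K9me1. It is known from other cells to act with E2F1 at cell cycle promoters, and the study also looked at PHF8 on the E2F1 promoter in SKMEL-147 cells.

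SKMEL-147 cells, an established line of human melanoma, were profiled by ChIP-seq (sequencing of immunoprecipitated chromatin) with an anti-PHF8 antibody, without any treatment or genetic change named in the labels. The 3 PHF8 ChIP replicates (A, B1 and B2) form a single group, and the 2 input chromatin libraries (A and B) enter only through the values that the authors' peak caller gave to each peak. The labels do not say how B1 and B2 are related, so the spread between replicates may be technical in part. A gene was called bound in a replicate where a peak lay within 1 kb of any of its annotated transcription start sites (TSSs), and a target where this held in all 3 replicates. This is the rule given in the study's methods, applied here to every TSS of GENCODE release 44, so the targets need not be those of the study. Fold enrichment compares ChIP fragments with the local background at the summit, the highest point of a peak, as a ratio with 1 added to both terms.

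Values in 3 replicates are given in the order A, B1 and B2 throughout. The lists held 21506, 20882 and 20120 peaks, of which 19, 16 and 18 lay at E2F or DP genes. The scale of fold enrichment differed between lists, with a median over all peaks of 18.9, 11.8 and 11.8. Each gene was therefore also given as a percentile of the fold enrichment of its strongest promoter peak among the 12139 protein-coding targets, within each replicate. The median peak stood on 54, 39 and 40 fragments at its summit.

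Promoter sequences of E2F1, E2F2, E2F3, TFDP1 and E2F4 are given below. Each stretch holds the 100 bases just before the 5′ end of the gene on genome build hg19 (GRCh37), written 5′ to 3′ on the strand of the gene, and none overlaps an annotated exon. Capitals mark matches to the E2F site, searched as TTTCGCGC, TTTGGCGC, TTTCCCGC and TTTGCCGC on both strands. The E2F1 stretch is chr20:32274192-32274291 (minus strand), that of E2F2 is chr1:23857726-23857825 (minus strand), that of E2F3 is chr6:20402010-20402109 (plus strand), that of TFDP1 is chr13:114238936-114239035 (plus strand) and that of E2F4 is chr16:67225958-67226057 (plus strand).
E2F1: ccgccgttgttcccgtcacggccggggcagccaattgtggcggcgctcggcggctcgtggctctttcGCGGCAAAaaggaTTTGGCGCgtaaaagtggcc
E2F2: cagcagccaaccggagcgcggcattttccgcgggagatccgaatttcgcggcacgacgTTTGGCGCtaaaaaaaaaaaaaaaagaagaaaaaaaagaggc
E2F3: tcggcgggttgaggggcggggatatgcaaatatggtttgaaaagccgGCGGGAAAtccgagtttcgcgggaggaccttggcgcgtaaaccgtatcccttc
TFDP1: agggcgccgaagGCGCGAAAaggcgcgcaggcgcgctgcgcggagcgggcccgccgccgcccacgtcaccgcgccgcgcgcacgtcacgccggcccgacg
E2F4: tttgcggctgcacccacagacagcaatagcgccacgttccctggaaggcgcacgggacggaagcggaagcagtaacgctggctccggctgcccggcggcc
E2F1 holds 2 of these sites, starting 33 and 20 bases before the 5′ end. E2F2, E2F3 and TFDP1 hold 1 each, starting at -42, -53 and -88. E2F4, which carried the strongest PHF8 peak of the family, holds none in this stretch.

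All 10 genes were PHF8 targets, with a promoter peak in 3 of 3 replicates, against 60.2% of all protein-coding genes (12139 of 20162). The remaining DP gene, TFDP3, is a testis-expressed gene at chrX:132350690-132352382 (minus strand). It had no promoter peak in any replicate, and the nearest PHF8 summit lay 260141, 260199 and 260101 bp away. With a stricter fold enrichment above 10, 6 of the 10 were still called in all 3 replicates, against 49.6% of all protein-coding genes, and E2F1, E2F2, E2F5 and E2F8 dropped out. Without this stricter cutoff, the median percentile of fold enrichment over the 10 genes was 37.3, 27.1 and 37.7. The median of the mean percentiles of the 10 genes was 37.5, against 50.8 for all protein-coding targets. Set among all peaks of a replicate rather than among targets, the same median was 64.2. In fold enrichment the family medians were 28.3, 13.7 and 15.5, against 33.4, 19.4 and 18.4 over all targets.

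**Figure D1:**
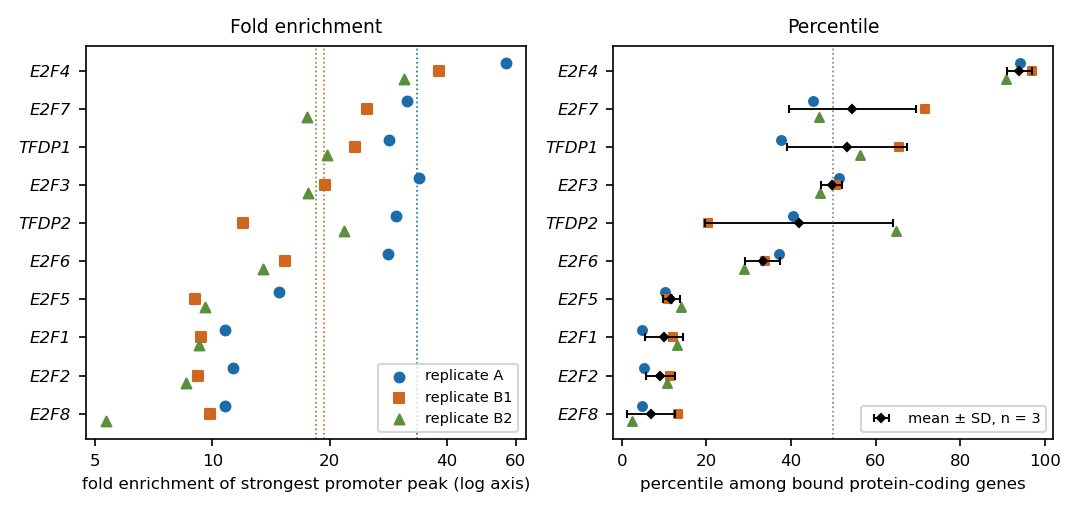
Left, fold enrichment of the strongest promoter peak of each gene in replicates A, B1 and B2 on a log axis, with dotted lines at the median of all protein-coding targets in each replicate; right, the percentile of the same values among protein-coding targets, with the mean and SD of the 3 replicates and a dotted line at 50. E2F4 lies above 90 in every replicate, while E2F5, E2F1, E2F2 and E2F8 lie below 14 in every replicate.

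The activators did not form a single class of strength. E2F1, at chr20:32263283-32274191 (minus strand), is the best-known activator of entry into S phase. Its strongest promoter peak had a fold enrichment of 10.8, 9.35 and 9.27, on 30, 31 and 32 fragments at the summit (95% Poisson intervals 20.2 to 42.8, 21.1 to 44 and 21.9 to 45.2, covering counting error only). The −log10 q-values deposited for these peaks were 23.4, 21.2 and 21.5. E2F1 was therefore called in every list, at percentiles of 4.69, 12 and 12.9, a mean of 9.87 ± 4.51 (SD, n = 3), low among targets in all 3 replicates. Set among all peaks of each replicate rather than among targets, its mean percentile was 38.1.

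E2F2, at chr1:23832930-23857725 (minus strand), stood close to E2F1, with a fold enrichment of 11.3, 9.21 and 8.54 on 28, 26 and 25 fragments. Its mean percentile was 9.11 ± 3.35 (SD, n = 3). E2F3, at chr6:20402110-20493945 (plus strand), reached 33.9, 19.4 and 17.6 on 86, 56 and 53 fragments, and its percentile was 49.6 ± 2.39 (SD, n = 3). The third activator thus lay near the middle of all targets, and its replicates did not overlap those of E2F1 or E2F2.

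The canonical repressors lay far apart. E2F4, at chr16:67226058-67232821 (plus strand), is the main E2F bound with p130 in resting cells. It had a fold enrichment of 56.6, 38.2 and 31.0, on 172, 144 and 140 fragments (95% Poisson intervals 147 to 199.7, 121 to 169.5 and 118 to 165). Its −log10 q-values were 255, 183 and 162, and its percentiles were 94.0, 96.9 and 90.9. E2F5, on chromosome 8, had 14.8, 9.01 and 9.55 on 37, 31 and 34 fragments, a percentile of 11.6 ± 2.0 (SD, n = 3). The values of E2F4 and E2F5 did not overlap between genes in any pair of replicates.

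E2F6, at chr2:11584501-11606303 (minus strand), had a fold enrichment of 28.2, 15.3 and 13.5 on 75, 44 and 40 fragments, a percentile of 33.3 ± 4.16 (SD, n = 3). The atypical pair lay apart, with values that did not overlap. E2F7, at chr12:77415028-77459349 (minus strand), had 31.5, 24.9 and 17.5 on 82, 77 and 56 fragments, a percentile of 54.5 ± 14.9 (SD, n = 3). E2F8, at chr11:19245610-19263167 (minus strand), had 10.8, 9.85 and 5.33, on 27, 34 and 28 fragments. Its percentile of 6.77 ± 5.68 (SD, n = 3) placed it last in the family, but without replicate B2 it stood at 9.81, above E2F2 (9.26) and E2F1 (9.22), and by fragments E2F2 was the lowest. The strongest peak of E2F8 was not the same one throughout, with its summit at 782 bp in A and at +127 and +169 bp in B1 and B2. The peak nearer the 5′ end had a fold enrichment of 7.61, 9.85 and 5.33. Its local background was 2.68, 2.55 and 4.44 fragments. The part of this background in the lower value of B2 was not tested.

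Both DP partners lay in the middle of the family. TFDP1, at chr13:114239036-114295788 (plus strand), the partner found in most E2F dimers, had a fold enrichment of 28.4, 23.2 and 19.7 on 72, 67 and 59 fragments, a percentile of 53.1 ± 14.2 (SD, n = 3). TFDP2, at chr3:141663270-141868386 (minus strand), had 29.6, 12 and 21.8 on 113, 62 and 83 fragments. Its percentiles of 40.4, 20.3 and 64.7 were the most spread of the family. Its local background was 2.85, 4.25 and 2.85 fragments, highest in B1, where its fold enrichment and its fragments at the summit were both lowest. The part of this background in the lower value of B1 was not tested.

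Ranked by mean percentile, the order was E2F4, E2F7, TFDP1, E2F3, TFDP2, E2F6, E2F5, E2F1, E2F2 and E2F8. Neighbours were separated beyond their replicate ranges at only 2 places, between E2F4 and E2F7 and between E2F6 and E2F5. All other neighbours in this order overlapped and cannot be ranked from these replicates. The order thus falls into E2F4 alone, a middle group of 5 genes and a low group of 4 genes. Ranked by fragments at the summit in place of fold enrichment, E2F4 was again first (mean percentile 97.9) and the 4 low genes were again the lowest (6.79 to 12.1). TFDP2 moved from the fifth place to the second (61.2 ± 12.6, SD, n = 3).

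Since the study asked about E2F1, every other gene was set against it within each replicate, as the difference in log2 fold enrichment. E2F4 was above E2F1 by 2.05 ± 0.33 (SD, n = 3), E2F7 by 1.29 ± 0.33, TFDP1 by 1.27 ± 0.16, E2F3 by 1.21 ± 0.39, TFDP2 by 1.02 ± 0.58 and E2F6 by 0.88 ± 0.45. These 6 genes were above E2F1 in 3 of 3 replicates. E2F5 differed from E2F1 by 0.15 ± 0.27 (above in 2 of 3), E2F2 by -0.02 ± 0.09 (above in 1 of 3) and E2F8 by -0.24 ± 0.48 (above in 2 of 3), so that none of the 3 differences exceeded its own SD. In the exact two-sided sign-flip permutation test, the 6 genes reached p = 0.25, the smallest value that 3 replicates allow, with a Benjamini-Hochberg adjusted p of 0.375 over the 9 comparisons. E2F5 and E2F2 gave p = 0.75 (adjusted p = 0.844) and E2F8 gave p = 1, in the same exact permutation test. No comparison could have passed a threshold of 0.05 in this test.

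The genes with the pattern most like that of E2F1, by Euclidean distance in log2 fold enrichment over the 3 replicates among all protein-coding targets, were RUNX2, NANOS3 and RTN4R. RUNX2, a transcription factor of bone formation, had 10.8, 9.55 and 9.53 at a distance of 0.05. NANOS3, an RNA-binding protein of germ cells, lay at a distance of 0.08, and RTN4R, the receptor of an inhibitor of neurite growth, at 0.10.

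Binding was found at the first promoter of each gene and nearly nowhere else. TSSs of a gene less than 1 kb apart were joined into 1 promoter, which gave 31 promoters in the 10 genes, and 11 of them had a peak in all 3 replicates, against 22.2% of all 62306 promoters of protein-coding genes. With a fold enrichment above 10 this was 7, against 17.6%. In the 9 genes with more than 1 promoter, the 5′-most promoter was bound in 9 of 9, against 60.7% of such promoters over all protein-coding genes. Of the 21 further promoters, 1 was bound, against 6.88% over all protein-coding genes. Few further promoters were bound in either set, so this trait is not particular to the family. The remaining 20 had no peak in any replicate.

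**Figure D2:**
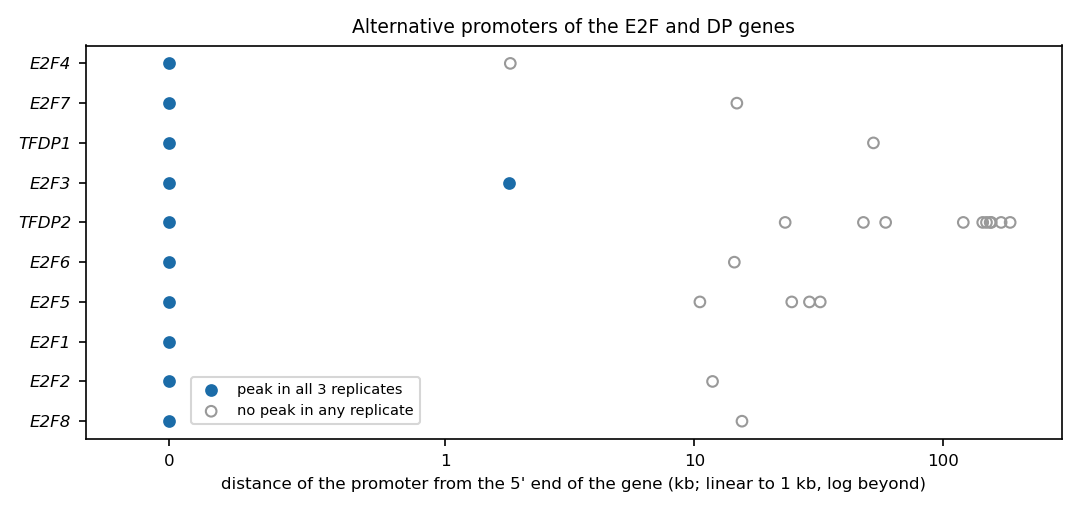
Promoters of each E2F and DP gene by their distance from the 5′ end of the gene in kb, on an axis that is linear up to 1 kb and logarithmic beyond. Filled circles had a peak in 3 of 3 replicates and open circles in none; E2F3 is the single gene with a filled circle beyond the first promoter, 1800 bp from it.

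The exception was E2F3, whose second promoter gives rise to the shorter isoform E2F3b. Its TSS at position 20403910 of chromosome 6 lies 1800 bp into the gene. Both promoters of E2F3 share the strongest peak, whose summit lay 1392, 1306 and 1429 bp from the 5′ end, that is -408, -494 and -371 bp from the second TSS, in an intron. Beyond the second TSS, at +165, +181 and +125 bp, a further summit had a fold enrichment of 20.6, 6.76 and 10.8. At the first promoter a separate peak stood in A (+161 bp, fold enrichment 24.2) and B2 (+141 bp, 12.8), while in B1 a single peak of 1610 bp spanned both stretches. The stronger signal therefore sat between the promoters in all 3 replicates, nearer to the second. The 100 bases around its summit in A, at chr6:20403453-20403552 on the plus strand and in no annotated exon, are given to show the composition of the peak centre, with a GC content of 77.0%.
E2F3 intron: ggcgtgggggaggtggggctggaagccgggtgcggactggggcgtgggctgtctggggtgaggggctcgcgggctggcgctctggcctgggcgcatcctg

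TFDP2 has 11 promoters, the most of the family, of which only the first was bound. Its promoter 5, 120387 bp downstream, holds 7 TSSs and 6 protein-coding transcripts, more than the 4 protein-coding transcripts of the first, and had no peak in any replicate. E2F5 has 5 promoters and only its first was bound. E2F4 has a second promoter 1823 bp from its first, about as far apart as the pair in E2F3, and it had no peak.

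PHF8 summits at these genes lay on either side of the 5′ end, more often downstream. The closest summit of the family, the smallest of 17, 14 and 16 distances, lay 121, 89 and 93 bp from the 5′ end. Of single summits at all protein-coding targets, 10.0%, 3.87% and 4.54% lay closer. These shares do not measure how unusual the smallest of several distances is. Within 1 kb of the 5′ ends, 12 of 17 summits in A, 10 of 14 in B1 and 11 of 16 in B2 lay downstream, against 66.0%, 65.9% and 66.3% over all targets. The median position was +154, +159 and +146 bp downstream and -342, -354 and -362 bp upstream. Over all targets the medians were +171, +175 and +175 bp and -307, -306 and -303 bp.

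**Figure D3:**
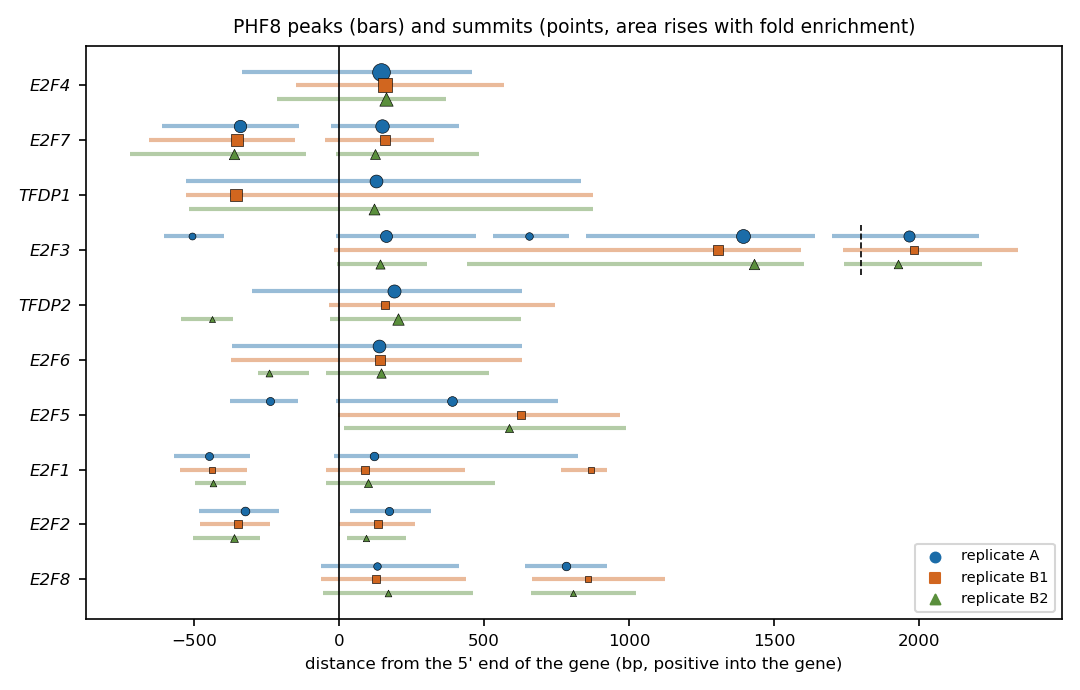
Peaks (bars) and summits (points, with an area that rises with fold enrichment) of the E2F and DP genes in replicates A, B1 and B2, by distance from the 5′ end of the gene in bp, with the second TSS of E2F3 as a dashed line. E2F1, E2F2 and E2F7 have separate peaks on both sides of the 5′ end in all 3 replicates, and E2F4 has a single peak centred at +144 to +161 bp.

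A summit on both sides of the 5′ end in all 3 replicates was found at 3 of the 10 genes, against 16.7% of all protein-coding targets. In E2F1 the downstream summit lay at +121, +89 and +98 bp and the upstream one at -448, -437 and -434 bp, with a fold enrichment upstream of 8.97, 5.63 and 5.18. By fold enrichment the downstream peak was the stronger in every replicate, while in A it had 30 fragments at its summit against 32 upstream. In E2F2 the sides were reversed. Its upstream summit, at -324, -347 and -361 bp, was the stronger in every replicate, and the downstream one at +172, +134 and +93 bp had a fold enrichment of 9.74, 7.50 and 4.6. In E2F7 the summits lay at +147, +159 and +123 bp and at -342, -352 and -362 bp. Downstream was stronger in A (31.5 against 26.4), and upstream in B1 (24.9 against 16.3) and B2 (17.5 against 15.7), so the sides of E2F7 cannot be ranked. The upstream centre of E2F7 is given as the 100 bases at chr12:77459642-77459741 on the minus strand, which hold no annotated exon and have a GC content of 71.0%.
E2F7 upstream: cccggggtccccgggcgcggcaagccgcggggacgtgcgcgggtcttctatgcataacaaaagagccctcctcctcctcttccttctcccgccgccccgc

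A downstream summit was present in all 3 replicates at 8 of the 10 genes, against 68.6% of all protein-coding targets. The exceptions were E2F3, where B1 joined the signal of both promoters into 1 peak, and TFDP1, whose summit lay upstream in B1. TFDP1 carried a single peak of 1362, 1407 and 1392 bp, with its summit at +126, -357 and +119 bp. E2F4 also had a single peak in every replicate, of 796, 716 and 584 bp, and its summit at +144, +159 and +161 bp lay in a coding exon. E2F6 (+138, +140 and +146 bp) and TFDP2 (+191, +160 and +203 bp) had their main summits at like positions. E2F8 had a pair of peaks, at +130, +127 and +169 bp and at 782, 859 and 806 bp. The farther one lay 107, 184 and 131 bp beyond a more internal TSS of E2F8, so each peak stood just downstream of a start. The strongest summit of E2F5 lay at 389, 627 and 586 bp, farther into the gene than the strongest summits of all other members but E2F3 and, in replicate A, E2F8. The first promoter of E2F5 holds more than 1 TSS, and from the nearest of them this summit lay at -69, +169 and +128 bp.

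Peaks at E2F5 and at the first promoter of E2F3 were shared with non-coding neighbours, so binding cannot be assigned to 1 gene there, while the peak just past the second TSS of E2F3 had no TSS of another gene within 1 kb in any replicate. The lncRNA ENSG00000289981 starts 376 bp upstream of E2F3 on the opposite strand. E2F5-DT starts 92 bp upstream of E2F5 and ENSG00000254208 starts 538 bp into it, both on the opposite strand, and all 3 neighbours counted as bound in 3 of 3 replicates. No other gene had a TSS within 1 kb of a peak counted for the remaining 8 members. Of the 10 genes, 6, 5 and 7 had at least 2 promoter peaks, against 45.2%, 48.4% and 47.7% of all targets. The summed peak length per gene had a median of 964, 921.5 and 861.5 bp, against 1020, 964 and 929 bp.

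The starts of all 10 genes were CpG-island-like, with 50% GC or more and 0.6 or more of the CpG dinucleotides that base composition predicts in the 501 bp around the 5′ end, against 58.9% of all protein-coding genes and 79.1% of targets. Of all CpG-island-like starts, 80.8% belonged to targets, so the share bound in this class was higher than over all genes. GC content ranged from 62.5% in E2F3 to 81.4% in TFDP1, and the ratio of observed to predicted CpG from 0.741 in E2F4 to 1.10 in E2F1. The gene with the strongest peak thus had the lowest CpG ratio of the family.

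In the window from 250 bases before to 50 bases after the 5′ end on GRCh37, 5 of the 10 genes held an E2F site, namely E2F1, E2F2, E2F3, E2F5 and TFDP1, against 3.78% of all protein-coding genes and 4.93% of targets. In the RefSeq promoter table, which is on GRCh38, 8 of the members matched, with 11 entries, and 4 of them held a site, against 3.31% of all 35116 promoters. E2F5 and E2F8 have no entry there. A match describes these letters and is not a binding site. The genes with an E2F site ranged in mean percentile from 9.11 (E2F2) to 53.1 (TFDP1), and those without one from 6.77 (E2F8) to 94.0 (E2F4), so the ranges overlapped.

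The 6 E2F sites of the family lay whole inside a PHF8 peak in 8 of 18 pairs of site and replicate (44.4%), against 59.7% of such pairs for the 629 sites of all targets. In E2F2 and E2F3 the site printed above was in no peak in any replicate, and in E2F2 it fell in the gap between the flanking peaks. In E2F1 both sites lay inside the edge of the downstream peak in B1 and B2, while in A that peak ended within the nearer site and left the other outside. The site of E2F5 lay in a peak in A only. TFDP1 was the single gene whose site lay within a peak in all 3 replicates. Other elements were searched on both strands in the same GRCh37 window. The GC box GGGCGG was present in 9 of 10 genes, all but E2F2 (52.1% of all protein-coding genes and 64.4% of targets). CCAAT was present in 5 (35.8% and 36.6%), with 4 matches each in E2F3 and E2F7. The CHR element TTTGAA, known from late cell cycle genes, was found in E2F3 and E2F8 (13.3% of all protein-coding genes and 10.7% of targets). No E2F site overlapped another of these elements, while 1 CCAAT match of E2F7 overlapped a GC box.

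Genes that work with the E2F family were read in the same way, from 5 lists of 61 genes in all. Each list is given by its count and its median percentile beside the 60.2% of protein-coding genes that were targets and the median of 50.8 over them. On the list of pocket proteins and the DREAM complex, 10 of 10 were targets, with a median of 56.9. Several of its members, though not all, silence cell cycle genes in resting cells with E2F4 or E2F5. LIN9, a core subunit of DREAM, was the highest at 91.7 ± 3.31 (SD, n = 3), with a fold enrichment of 51.2, 33.5 and 33.7. MYBL2, an activator of cell cycle genes, was the lowest at 27.5 ± 6.84 (SD, n = 3). RB1, the retinoblastoma protein that restrains the activators, stood at 52.7 ± 22.3 (SD, n = 3), above E2F1, E2F2 and E2F8 in every replicate.

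Of the G1 cyclins, their kinases and inhibitors, 13 of 15 were targets, with a median of 35.1. CCND2 (cyclin D2) and CDKN2B (the inhibitor p15) had no promoter peak in any replicate. CCND3 (cyclin D3) was the highest at 89.8 ± 14.9 (SD, n = 3), with a fold enrichment of 42.5, 39.8 and 41.2. CCNE1 (cyclin E1), a classical E2F target, was the lowest at 11.3 ± 5.31 (SD, n = 3), with 19.5, 7.97 and 7.66. The 3 D-type cyclins thus ranged from no peak to a peak near the top, with CCND1 at 20.1 ± 11.3 (SD, n = 3).

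All 25 genes on the list of textbook E2F targets were PHF8 targets, with a median of 45.3. CDC25A, the phosphatase that activates CDK2, was the lowest at 14.5 ± 3.24 (SD, n = 3), with 19.3, 10.5 and 8.69. Every gene of this list had a higher mean percentile than E2F5, E2F1, E2F2 and E2F8. Single replicates overlapped, since in B1 the fold enrichment of MCM6 (8.40) was below that of all 4 (9.01 to 9.85). The contrast also holds for this list only. CCNE1, a classical E2F target placed on the list of G1 genes, lay at 11.3, below E2F5 at 11.6. The 6 subunits of the MCM helicase differed among themselves, from MCM6 at 15.9 ± 6.21 (SD, n = 3) to MCM4 at 87.7 ± 3.27 (SD, n = 3).

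The partners of E2F6 in the variant Polycomb complex were targets in 9 of 9, with a median of 48.5. YAF2 was the highest at 83.3 ± 8.85 (SD, n = 3), and RNF2, the ubiquitin ligase of Polycomb complexes, the lowest at 9.96 ± 4.21 (SD, n = 3). E2F6 itself, at 33.3, lay below 7 of these 9 partners. HCFC1 and SETD1A, cofactors known to work with PHF8 and E2F1 at cell cycle promoters, were both targets, at 19.6 ± 4.59 and 37.8 ± 13.5 (SD, n = 3).

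**Figure D4:**
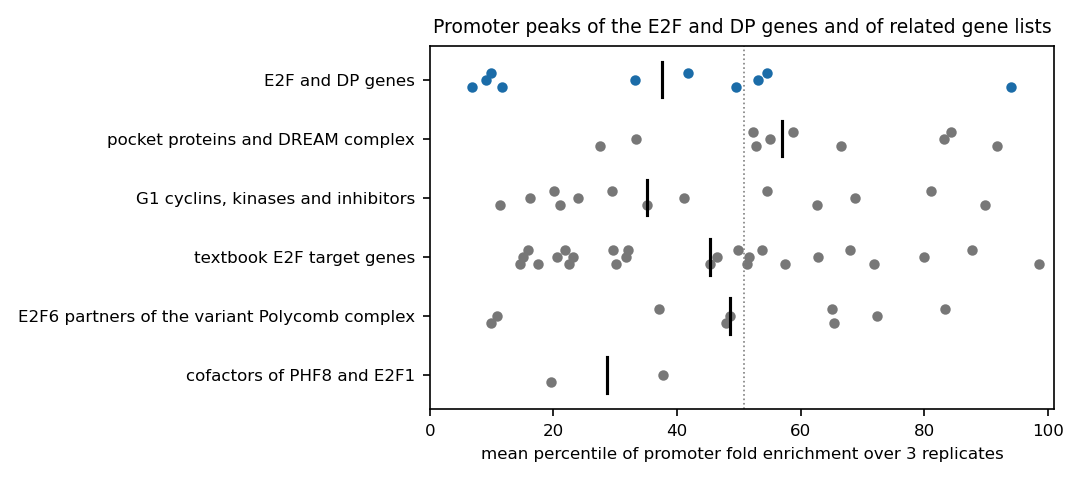
Mean percentile of promoter fold enrichment over the 3 replicates for each target among the E2F and DP genes and the 5 related lists, with a black bar at the median of each list and a dotted line at the median of all protein-coding targets, 50.8. The E2F and DP genes run from 6.77 to 94.0. By this mean, though not in every single replicate, 4 of the 10 lie below every gene on the list of textbook E2F targets. That list does not hold CCNE1, which lies below E2F5.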

How the data were processed

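PHF8 ChIP-seq peak lists of 3 replicates of SKMEL-147 cells were used. The authors mapped reads to hg19 with Bowtie2, per the labels, and called narrow peaks with MACS for each replicate against input. Tool versions are not given in the sources used here. Deposited fold enrichments are linear ratios, fragments over local background with 1 added to both, and the deposited p-value and q-value are −log10 values. The deposited score was not used further. No listed peak failed the study's cutoffs of 1.5 in fold enrichment and 0.05 in q-value (largest 0.0482), with the latter read as an upper limit.

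Every transcript of GENCODE release 44 on GRCh37 gave a TSS, without chromosome M and the copy of the pseudoautosomal regions on Y. The strongest peak overlapping the window of 1 kb around a TSS gave the value of a gene. Fragments at a summit were recovered as the whole number that gives both the deposited fold enrichment and p-value under a Poisson law, which held for 100% of peaks within 0.001 on the −log10 scale. The recovered background over the genome was 1.57, 1.93 and 2.04 fragments in A, B1 and B2, and total read depth is unknown. Replicates were compared with an exact sign-flip test adjusted by Benjamini-Hochberg. Statistics were tested on simulated data. Motifs were searched on GRCh37 sequence, since the RefSeq table is on GRCh38. The members and lists were chosen with earlier results of these data known. The genes named are the members, TFDP3, neighbours sharing a peak, the 3 genes nearest to E2F1, and, of each list, the unbound, highest and lowest genes. An item that this rule picks is not reported here. RB1, CCND1, MCM4 and MCM6 were added after their values were seen. Python 3.11.15, numpy 2.4.6, pandas 2.3.3 and scipy 1.17.1 were used. Alternatives covered peak cutoffs, TSS windows, TSS sets, replicates and the measure of strength.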

Additional observations from a re-analysis of the deposited data

How the results depend on the processing

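Under a fold enrichment above 10, the bound genes fell to 6 (49.6% of all protein-coding genes were still bound), and the bound promoters to 7 (17.6%). E2F1, E2F2, E2F5 and E2F8 were then no longer bound in all 3 replicates, so no difference from E2F1 could be computed. The median percentile moved to 64.2 among all peaks of a replicate, a larger reference set that also holds peaks away from promoters. Leaving out 1 replicate at a time gave 10 genes, 11 promoters, a median percentile of 33.6 to 39.8, and 6 to 7 genes above E2F1. In the same runs the difference from E2F1 changed sign for E2F5 (-0.0055 to 0.25, below 0 without replicate A), E2F2 (-0.070 to 0.024, above 0 without replicate B2) and E2F8 (-0.40 to 0.039, above 0 without replicate B2), so these directions are not settled. The remaining alternatives left the counts of genes, promoters and genes above E2F1 within 1.5 times and the median percentile within 1 SD between replicates. Percentiles of single genes moved by more than their SD in 15 cases. All 10 rose among all peaks (30.9 for E2F8 to 97.1 for E2F4), E2F3 and E2F6 moved to 38.9 and 19.4 above a fold enrichment of 10, and by fragments E2F3, E2F4 and E2F6 moved to 39.4, 97.9 and 26.5. Joining only TSSs closer than 500 bp gave 13 bound promoters. Counting a peak only at the TSS nearest to its summit, an alternative chosen after seeing the data, gave 10, since E2F3 then lost its first promoter in B1. Genes were compared within each replicate, but ChIP could not be paired with input. The peak lists form a single group, and the inputs (A and B) have no peak values. With 3 replicates the sign-flip test could not pass 0.05, and depth could not be read beyond the fragments at summits.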

Other observations

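Around the E2F and DP genes, the PHF8 peaks that lay away from their own TSSs stood at starts of other genes. Below the 3′ end of E2F1, 11728 bp from its TSS in A, a peak at the TSSs of NECAB3 and the lncRNA ENSG00000271803 had a fold enrichment of 36.0, 19.6 and 19.5 in A, B1 and B2, which was above the E2F1 promoter peak in each replicate. Below the 3′ end of E2F5, a peak at the TSSs of CA13, a carbonic anhydrase, and RBIS had 25.8, 19.8 and 19.7, also above the E2F5 promoter peak. A weaker separate peak there in A and B1 had 8.97 and 8.44, below the E2F5 promoter peak. The bodies of the other 8 genes and the 5 kb on either side of them held no further peak in any replicate.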
